A study of Mus musculus with 8 samples.

Results

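The BMP and Nodal genes followed here were 10 loci of an RNA-Seq count table from mouse embryonic stem cells (mESCs): the ligands Bmp4 and Nodal, the Nodal co-receptor Tdgf1, the inhibitors Smad6, Smad7, Lefty1 and Lefty2, and the targets Id1, Id2 and Id3. They were chosen by gene symbol, as the loci whose most frequent gene name is one of these, and they make up 10 of the 44396 loci in the table. The choice was made with earlier results of these libraries known, the higher Bmp4 RNA after morphine among them, so RNA differences between the groups are given as a description of these members and not as independent evidence. The cells are a line that carries GFP under the Oct4 promoter, and they were grown without feeders on gelatine in medium with knock-out serum replacement. A condition with LIF and inhibitors of MEK and GSK3 is also described in the study's methods, and which medium these libraries came from is not given in the sources used here. Control cells received 0.9% NaCl and treated cells 10 µM morphine, an opioid receptor agonist, for 24 h. H3K27me3 ChIP-Seq and poly(A) RNA-Seq were each made from 2 control and 2 morphine libraries, and nothing in the labels ties a ChIP library to an RNA library.

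BMP and Nodal are secreted ligands of the TGF-β superfamily. BMPs signal through type I and type II receptors to SMAD1, SMAD5 and SMAD9, while Nodal needs the co-receptor encoded by Tdgf1 (Cripto) and signals to SMAD2 and SMAD3, and both branches share SMAD4. BMP4 together with LIF keeps mESCs undifferentiated in part through the Id genes, whereas Nodal switches on its own inhibitors, Lefty1 and Lefty2. H3K27me3, the mark laid down by Polycomb Repressive Complex 2 (PRC2), is known in mESCs for covering the CpG-rich promoters of developmental genes that are silent or weakly transcribed.

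The RNA libraries held between 25081266 and 29531096 counts. The cells matched their label: summed over 7 pluripotency markers, normalised CPM (counts scaled to the size of the library) were 4037 and 4050 in the controls and 4218 and 4095 after morphine, against 41.9 and 42.2, then 39.7 and 42.4, for 6 primitive endoderm markers. For 4 markers of the primed epiblast the sums were 91.7 and 90.7 in the controls and 93.3 and 92.1 after morphine, most of it from Dnmt3b. The median log2 fold change of these 4 was 0.33, with Fgf5 at 0.76 (7 to 23 counts per library) and Pou3f1 at 0.61 (27 to 41 counts) but Dnmt3b at 0.05 and Otx2 at -0.14 with more counts, and their part in the results below was not tested. No gene of the marker lists passed the test. Gapdh had only 135 to 159 counts per library. How reads that map to several places were counted is not given in the sources used here, and its part in the counts of the paralogs Lefty1 and Lefty2 was not tested, so these are less certain. With 2 libraries a group, and no label that says they came from separate cultures (the methods speak of biological replicates for ChIP-Seq), p-values measure only the spread between these libraries, and the exact permutation test of a single value cannot go below p = 0.33. Across loci the log2 fold change after morphine correlated with GC content (Spearman's rho 0.485 across 20335 loci, which are not independent replicates), and the values of the members with the trends in GC content and locus length removed are given where they move a call or a direction. The loci of Bmp4, Id1 and Lefty1 had a GC content of 52.6%, 55.2% and 58.6%, against a median of 49.7%. The peak lists held 10305 and 13778 peaks in the controls and 8681 and 12282 after morphine. None of the lists held a peak in any of the 4 Hox clusters with their 39 genes, which are textbook targets of H3K27me3 and were the positive control of the study's ChIP-qPCR. In each of the 4 lists the highest peak number equalled the number of peaks listed. The reason was not tested, and a gene given below as without a peak is only one for which no peak was listed.

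Among the members, 3 rose after morphine and none fell: the ligand Bmp4, its target Id1 and the Nodal target and inhibitor Lefty1. Changes were small, between 1.24-fold and 1.42-fold. In the table as a whole, 0.614% of the 20350 tested loci passed a false discovery rate (FDR) of 0.05 upwards and 0.904% downwards, 1.52% in all, by edgeR's quasi-likelihood test with Benjamini-Hochberg adjustment over all tested loci. At an unadjusted p under 0.05 there were 5 members, all higher after morphine, against 20.5% of all tested loci (9.7% higher and 10.8% lower). With the GC and length trends removed, 3 members were higher and 1, Smad7, lower at that p. The share of all tested loci under that setting was not computed, so this count has no background beside it. The groups did not overlap for 8 of the 10 members, against 52.7% of all tested loci. The median log2 fold change of the members was 0.12 and that of all tested loci 0.00. All 3 calls were lost without the first morphine library, a setting that left 13 calls in the whole table against 309.

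**Figure D1:**
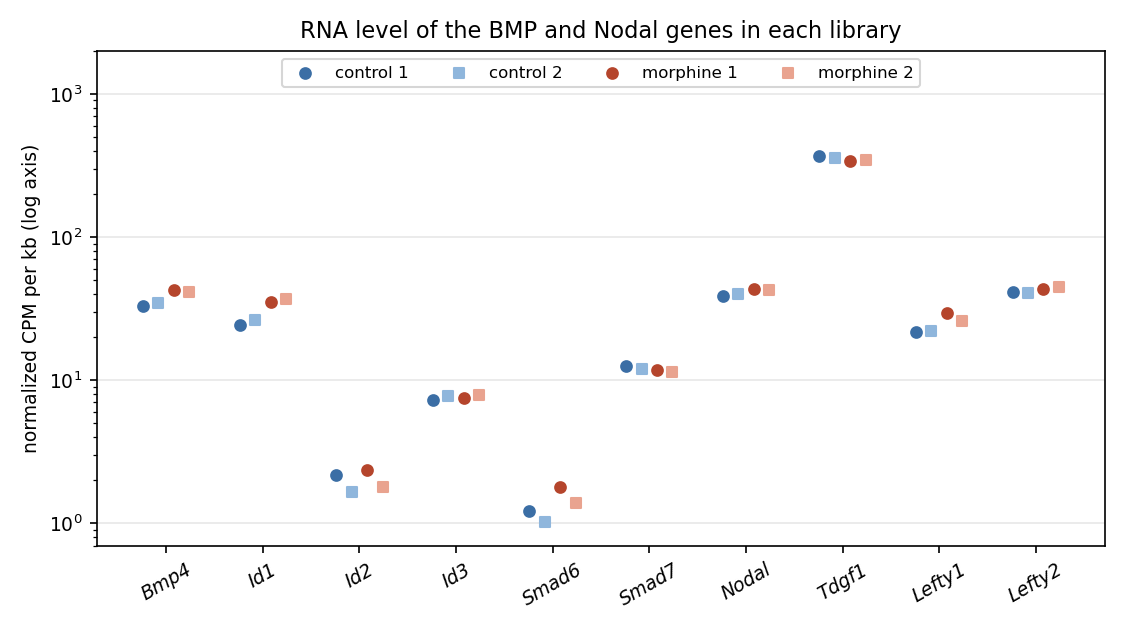
Normalised CPM per kb of locus length (log axis) of each of the 10 genes, with 1 point for each control (blue) and morphine (red) library. Tdgf1 lies far above the other genes and Id2 and Smad6 lie at the bottom.

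Levels differed between the members by up to 262-fold. On the scale of mean normalised CPM per kb over the 4 libraries, Tdgf1 stood highest at 354 and was followed by Lefty2 at 42.6, Nodal at 41.1, Bmp4 at 37.99, Id1 at 30.7 and Lefty1 at 24.7. Smad7 came next at 11.97, then Id3 at 7.60, Id2 at 2.00 and Smad6 at 1.35. The ranges over the 4 libraries overlapped between Lefty2 and Nodal, Nodal and Bmp4, Bmp4 and Id1, Id1 and Lefty1, and Id2 and Smad6, in part because the control and morphine libraries of a gene are pooled in its range. Within each library the order of 4 of these pairs was the same in all 4, and Lefty2 and Nodal changed places. The other neighbours in the order did not overlap.

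Bmp4 encodes the ligand that binds BMP type I and type II receptors. Its locus (mm10, chromosome 14, 46383525 to 46390669, minus strand) had 1875 and 2104 counts in the controls and 2220 and 2403 after morphine, or 68.3 and 71.5 normalised CPM against 87.8 and 85.4. Both morphine libraries lay above both controls. The group means were 69.9 ± 2.28 and 86.6 ± 1.70 normalised CPM (SD, n = 2 each), and Bmp4 rose by 0.31 ± 0.05 (SE) on the log2 scale with an adjusted p of 0.0263 in edgeR's quasi-likelihood test. With the trends of GC content and length removed it was 0.25 and kept its call (adjusted p = 0.0394), and without the first morphine library it was 0.29 and lost it (adjusted p = 0.287). The last 84 bp of the locus overlap Gm15217 on the opposite strand, which had 16 to 31 counts per library, and the strand setting of the counting is not given in the sources used here.

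A peak of H3K27me3 lay over the Bmp4 start site in each of the 4 ChIP libraries. In the first control it spanned 3 bp before to 2672 bp after the start, and in the second 189 bp before to 2642 bp after it. In the morphine libraries the peak began 224 and 183 bp before the start and ended 2517 and 2749 bp after it. Its extent varied little: of the 2 kb around the start, control peaks covered 1004 and 1190 bp and morphine peaks 1225 and 1184 bp. The peak caller's score placed it among the top 6.2% and 9.2% of peaks in the controls and the top 19.3% and 38.7% after morphine. Scores depend on each library's depth, which the lists do not give, and the lists differ in length, so these ranks describe each library and are not compared between groups. Only peaks that reach within 5 kb of the gene were looked for. In the first control and the second morphine library a second peak lay 9314 to 4887 bp and 9494 to 4957 bp upstream. Its near edge is close to that limit, so a similar peak slightly farther out in the other libraries would have been missed. A further peak began 10076 bp downstream of the start in the first control and 8220 and 8922 bp downstream in the morphine libraries. Within the same limit the second control had none there.

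The RefSeq promoters of Bmp4, Smad6 and Id2, which had a peak in all 4 libraries, and of Tdgf1, which had none, are printed to show the base composition around these start sites. The windows reach only the upstream edge of the peaks, and the control peaks of Id2 and the second control's peak of Smad6 begin downstream of them. Each runs from 250 bases before to 50 after the start of the gene in GRCm38.p6, here chr14:46390620-46390919, chr9:64022010-64022309, chr12:25096043-25096342 and chr9:110946109-110946408, all on the minus strand. Sequences read 5′ to 3′ along the gene, with each CG dinucleotide in capitals.
Bmp4: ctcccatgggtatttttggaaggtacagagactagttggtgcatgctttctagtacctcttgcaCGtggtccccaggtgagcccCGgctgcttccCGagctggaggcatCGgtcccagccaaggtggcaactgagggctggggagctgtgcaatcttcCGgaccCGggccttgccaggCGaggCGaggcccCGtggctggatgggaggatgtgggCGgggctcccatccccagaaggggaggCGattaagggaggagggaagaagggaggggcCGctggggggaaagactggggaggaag
Smad6: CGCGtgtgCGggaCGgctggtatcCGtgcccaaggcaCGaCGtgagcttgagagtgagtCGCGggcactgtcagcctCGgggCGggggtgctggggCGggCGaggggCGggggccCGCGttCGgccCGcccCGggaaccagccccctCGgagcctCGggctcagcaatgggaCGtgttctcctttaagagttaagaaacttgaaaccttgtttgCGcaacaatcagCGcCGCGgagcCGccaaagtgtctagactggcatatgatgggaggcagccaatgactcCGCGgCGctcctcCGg
Id2: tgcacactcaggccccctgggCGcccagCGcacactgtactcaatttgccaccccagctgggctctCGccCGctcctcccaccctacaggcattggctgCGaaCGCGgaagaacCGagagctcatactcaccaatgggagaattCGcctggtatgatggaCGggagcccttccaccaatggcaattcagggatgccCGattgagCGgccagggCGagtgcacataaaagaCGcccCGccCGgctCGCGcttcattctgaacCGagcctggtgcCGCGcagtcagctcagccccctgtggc
Tdgf1: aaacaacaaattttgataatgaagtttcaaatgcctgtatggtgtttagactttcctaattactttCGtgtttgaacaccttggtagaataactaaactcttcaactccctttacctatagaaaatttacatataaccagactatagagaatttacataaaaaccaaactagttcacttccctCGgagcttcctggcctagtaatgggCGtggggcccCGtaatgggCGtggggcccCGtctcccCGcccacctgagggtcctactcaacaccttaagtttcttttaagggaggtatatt
They hold 12, 31, 21 and 7 CG dinucleotides in this order. Those of the other members whose promoters were used, Id3 and Nodal, hold 19 and 5, and the median over 32851 promoters is 7. As many or more were found in 39.6% of all promoters for Bmp4, 10.6% for Smad6, 24.8% for Id2, 28.1% for Id3, 62.0% for Nodal and 52.1% for Tdgf1. Of these 6 members, the 4 with a peak in every library thus had more CG dinucleotides in this window than the pair with none.

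Id1, Id2 and Id3 encode inhibitors of basic helix-loop-helix factors and are direct targets of BMP-activated SMADs. Id1 (chromosome 2, 152736251 to 152737410, plus strand) had 625 and 728 counts in the controls and 826 and 972 after morphine, which is 22.8 and 24.7 against 32.7 and 34.5 normalised CPM. Both morphine libraries exceeded both controls. The mean rose from 23.7 ± 1.40 to 33.6 ± 1.32 (SD, n = 2 each), with a log2 fold change of 0.50 ± 0.07 (SE) and an adjusted p of 0.0119 by edgeR. With the GC and length trends removed it was 0.38 (adjusted p = 0.0518) and without the first morphine library 0.54 (adjusted p = 0.0752). DESeq2 gave Id1 an unadjusted p of 4e-06 and no adjusted p, since its filter set aside loci with a mean count under 931.

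Id2 and Id3 did not pass the test. Id3 (chromosome 4, 136143822 to 136145392, plus strand) had 6.99 and 7.41 normalised CPM in the controls and 7.12 and 7.46 after morphine, and the groups overlapped. Its log2 fold change was 0.02 ± 0.11 (SE, adjusted p = 0.952) and turned to -0.11 with the GC and length trends removed. Id2 (chromosome 12, 25093799 to 25096092, minus strand) rested on few reads, with 76 and 62 counts in the controls and 76 and 64 after morphine. These were 2.77 and 2.11 against 3.01 and 2.27 normalised CPM, again overlapping, and the log2 fold change of 0.11 ± 0.22 (SE, adjusted p = 0.818) was 0.22 with the GC and length trends removed and turned to -0.07 without the second control and -0.10 without the first morphine library.

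The Id genes also differed in H3K27me3. Id3 lay inside the broadest peak of the members, with widths of 6668 and 7334 bp (controls) and 6721 and 6895 bp (morphine), which covered the whole 2 kb around its start in each library. At Id2 a peak lay within 1 kb of a start site in all 4 libraries, but its edge was placed differently. In the controls it began 235 and 214 bp downstream of the start of the locus, and after morphine 143 and 50 bp upstream. Control peaks thus covered 766 and 787 bp of the 2 kb and morphine peaks 1144 and 1051 bp. Such wider coverage was not particular to Id2. Smad6 had it too (1058 and 903 bp against 1177 and 1083 bp). Bmp4 and Lefty2 overlapped between groups, and Id3 was covered in full. Of the other BMP targets with peaks throughout, Id4 had it (822 and 802 bp against 1137 and 1044 bp) and Hey1 overlapped. The share over all promoters was not computed. The paper reports more H3K27me3 around start sites after morphine. Id1 had a promoter peak in the second morphine library alone, from 6 bp downstream of the start, ranked at 57.4% of that library's peaks and absent at a score of at least 100. In the other libraries the nearest peak was 12133 to 16560 bp away.

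Smad6 and Smad7 encode the inhibitory SMADs, which BMP and TGF-β signals induce and which block the receptors in return. Smad6 (chromosome 9, 63953076 to 64022059, minus strand) had 100 and 89 counts in the controls and 134 and 116 after morphine. Its normalised CPM of 3.64 and 3.02 against 5.30 and 4.12 did not overlap, but with so few reads the log2 fold change of 0.50 ± 0.18 (SE) had an adjusted p of 0.144. It moved between 0.31 without the first morphine library and 0.67 without the second, and was 0.32 with the GC and length trends removed, with no call in any of these. Smad6, with Id2 the lowest of the members per kb, carried the highest-ranked promoter peak, in the top 0.7% and 3.1% of peaks in the controls and the top 1.2% and 1.1% after morphine. That peak was 3117 to 3492 bp wide and began between 176 bp upstream and 98 bp downstream of the start. Smad7 (chromosome 18) had 55.8 and 53.2 normalised CPM in the controls and 52.8 and 50.9 after morphine, a log2 fold change of -0.07 ± 0.06 (SE, adjusted p = 0.533). With the GC and length trends removed it was -0.20 (adjusted p = 0.138), and it was -0.04 without the first control and without the second morphine library. Peaks flanked its first start site in 3 libraries. They lay from 5961 to 1760 bp upstream and from 1897 bp downstream in the first control, from 6114 to 2222 bp upstream and from 1830 bp downstream in the second control, and from 5768 to 1403 bp upstream and from 226 bp downstream in the second morphine library. In the first morphine library, the shortest list, the nearest peak was 32650 bp away.

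**Figure D2:**
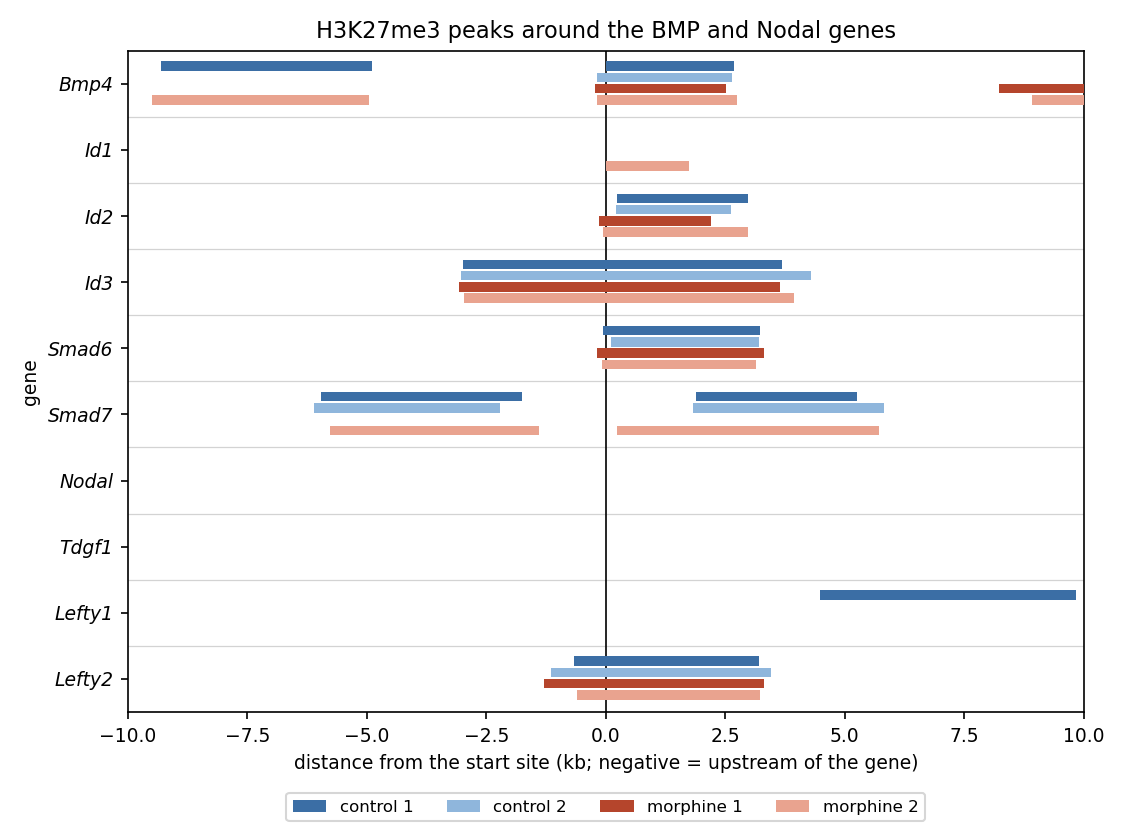
H3K27me3 peaks that reach within 5 kb of each gene, drawn up to 10 kb from its first start site, with 1 row of bars for each library. The x axis is the distance in kb along the gene. Bmp4, Id2, Id3, Smad6 and Lefty2 have a bar at or next to the start in all 4 libraries, whereas Nodal and Tdgf1 have none in the window.

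Nodal encodes the ligand of the other branch. Its locus (chromosome 10, 61417972 to 61425337, plus strand) had 80.6 and 83.7 normalised CPM in the controls and 90.9 and 89.5 after morphine. The groups did not overlap, yet the log2 fold change of 0.13 ± 0.05 (SE) had an adjusted p of 0.182, and it was 0.01 with the GC and length trends removed. No peak lay within 57789 bp of its start in any library. Tdgf1, the Nodal co-receptor (chromosome 9, 110939608 to 110946158, minus strand), had 737 and 714 normalised CPM in the controls and 677 and 692 after morphine. Lower in both morphine libraries, it had a log2 fold change of -0.08 ± 0.04 (SE) and an adjusted p of 0.277. It was -0.02 with the GC and length trends removed and -0.13 with the length trend alone removed. Its nearest peaks lay 66172 to 71681 bp away.

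The Lefty genes, neighbours on chromosome 1 and both induced by Nodal, encode secreted inhibitors of Nodal signalling. Lefty1 (180935039 to 180938401, plus strand) had 34.8 and 35.4 normalised CPM in the controls and 47.0 and 41.3 after morphine. The mean rose from 35.1 ± 0.449 to 44.1 ± 4.02 (SD, n = 2 each), with a log2 fold change of 0.33 ± 0.07 (SE) and an adjusted p of 0.0481 by edgeR, close to the threshold. With the length trend removed it was 0.29 (adjusted p = 0.0564), with the GC and length trends removed 0.16 (adjusted p = 0.253), and without the first morphine library 0.23 (adjusted p = 0.416). Lefty2 (180893108 to 180899107, plus strand) had 131 and 130 normalised CPM in the controls and 138 and 143 after morphine, a log2 fold change of 0.10 ± 0.05 (SE, adjusted p = 0.266). The difference between the paralogs in response was not tested.

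The paralogs were opposite in their peaks. Lefty2 had a peak over its start site in all 4 libraries, with widths of 3872 and 4605 bp (controls) and 4621 and 3832 bp (morphine). Lefty1 had none within 1 kb in any library, and its nearest peak was 4476 bp downstream in the first control and 38459 to 38678 bp away in the others. Lefty2, the paralog with the peak, was the more highly expressed of the 2 per kb in every library, at 40.99 to 44.9 against 21.7 to 29.3 normalised CPM per kb.

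**Figure D3:**
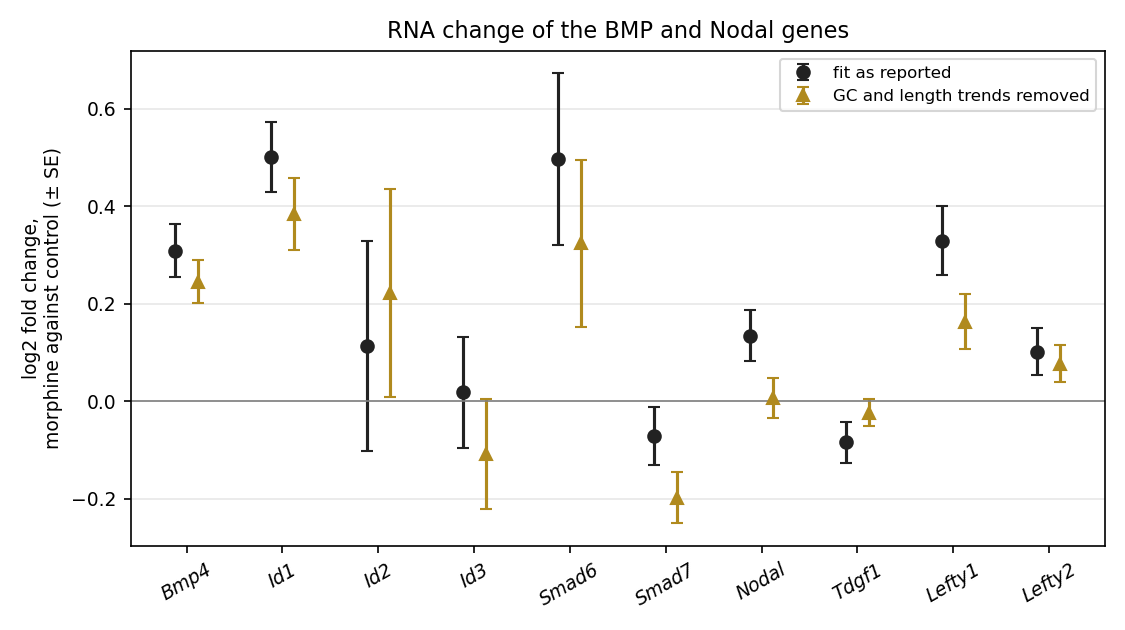
Log2 fold change of morphine against control (± SE, n = 2 libraries a group) for each of the 10 genes, in the fit as reported (circles) and with trends in GC content and locus length removed (triangles). Bmp4, Id1, Id2, Smad6, Lefty1 and Lefty2 stay above 0 in both, and Smad7 and Tdgf1 stay below it. Nodal moves from 0.13 to 0.01 and Id3 from 0.02 to -0.11. Of the 10 genes only Bmp4 passes the threshold with the trends removed.

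Whether the targets followed their ligand was read from the ratio of target to ligand counts within each library, which needs no scaling between libraries. The ratios are not corrected for the trends in GC content and locus length. Id1 had 33.3 and 34.6 counts per 100 Bmp4 counts in the controls and 37.2 and 40.4 after morphine, a log2 difference of 0.19 (pooled SD 0.066). The ratio was higher in both morphine libraries than in both controls. Id3 went the other way, with 10.2 and 10.4 counts per 100 of Bmp4 in the controls and 8.11 and 8.74 after morphine, and Smad7 likewise with 81.7 and 74.4 against 60.1 and 59.6. These log2 differences were -0.29 (pooled SD 0.055) and -0.38 (pooled SD 0.068). Id2, at 4.05 and 2.95 against 3.42 and 2.66, and Smad6, at 5.33 and 4.23 against 6.04 and 4.83, overlapped between groups. Of the 5 BMP targets, 1 was therefore higher relative to Bmp4 with no overlap between groups, 2 were lower and 2 overlapped. Since Bmp4 itself was higher after morphine, 72.8% of all other tested loci were lower relative to it without overlap and 2.54% higher, so the place of Id3 and Smad7 is that of most loci.

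The Nodal branch was mixed in the same way. Lefty1 had 43.2 and 42.3 counts per 100 Nodal counts in the controls and 51.7 and 46.1 after morphine, a log2 difference of 0.19 (pooled SD 0.084). Lefty2 had 163 and 156 against 152 and 159, and overlapped. Tdgf1 had 915 and 852 against 745 and 773, a log2 difference of -0.22 (pooled SD 0.058). Its locus has a GC content of 45.3%, against 56.0% for Nodal. With the GC and length trends removed, the log2 fold changes were 0.01 for Nodal, 0.16 for Lefty1, 0.08 for Lefty2 and -0.02 for Tdgf1. Tdgf1 and Nodal thus lay close together under that setting. Relative to Nodal, 9.2% of all other tested loci were higher without overlap and 49.8% lower. In all, 5 of the 8 ratios had no overlap between groups. Most loci also had no overlap in their ratio to either ligand, by the shares given here and above for Bmp4. This count is therefore not read as a result about the members. The exact permutation test of a ratio cannot go below p = 0.33 at this n, and no test is drawn on. A correlation between targets and ligand was not computed, since 4 libraries are too few.

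**Figure D4:**
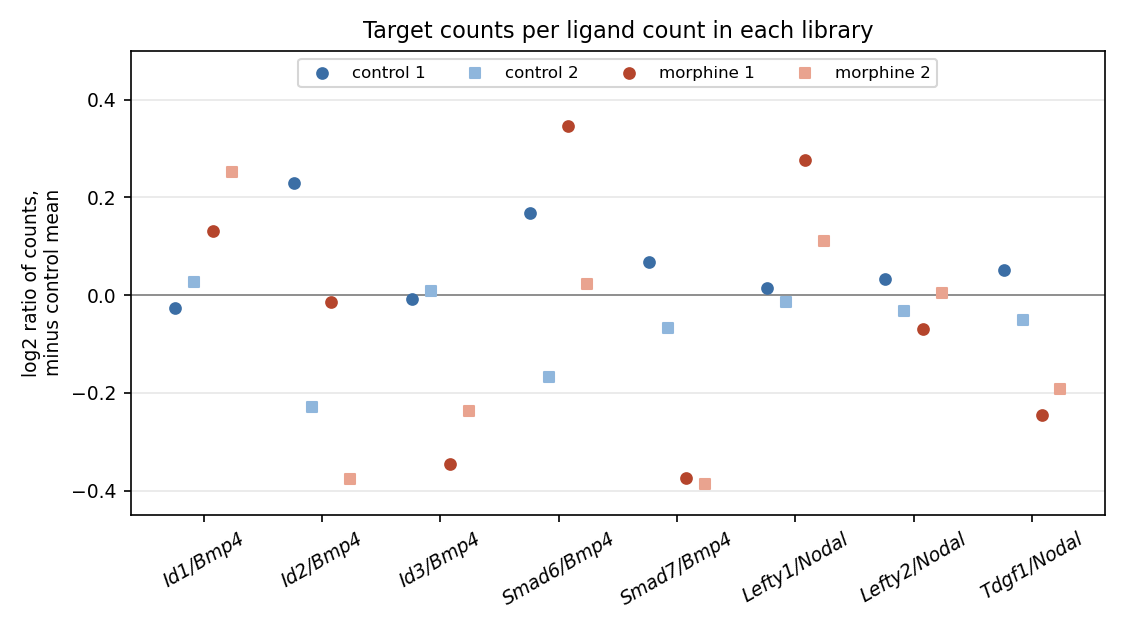
Log2 ratio of target to ligand counts in each library, minus the mean of the control libraries, for the 5 BMP targets over Bmp4 and the 3 genes over Nodal. Both morphine libraries lie above the controls for Id1/Bmp4 and Lefty1/Nodal and below them for Id3/Bmp4, Smad7/Bmp4 and Tdgf1/Nodal. Trends in GC content and locus length are not removed.

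Likeness to the Bmp4 profile was measured by Euclidean distance over the 4 libraries of log2 normalised CPM, centred on each gene's mean. The 5 nearest of 20349 loci, leaving out the gene lists, were Sertad1 (0.0146), Trim3 (0.0157), Arhgap27 (0.0171), Hmces (0.0171) and Rgl2 (0.0173). They come from a search over all loci, so their closeness is a description only. Lefty1 was the nearest member at 0.109, with 2.21% of loci nearer, followed by Nodal at 0.176 (8.5%), Id1 at 0.213 (14.1%), Lefty2 at 0.224 (16.0%) and Id3 at 0.301 (29.9%). Smad6, Smad7, Tdgf1 and Id2 lay between 0.377 and 0.458, with 44.8% to 59.0% of loci nearer.

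Taking the members as a group, a promoter peak within 1 kb of a GENCODE start site was present in all 4 libraries for 5 of 10: Bmp4, Id2, Id3, Smad6 and Lefty2. This compares with 11.7% of the 21951 protein-coding genes and with 15.0% of the 13515 that had a tested RNA locus. Nodal, Tdgf1 and Lefty1 had no promoter peak in any library, as did 77.1% of protein-coding genes, and Id1 and Smad7 had one in 1 and 3 libraries, Smad7 in the controls through another of its 3 annotated start sites. By group, 6 members had a promoter peak in both controls and 5 in both morphine libraries. Smad7 was the member that made up this difference, which had no promoter peak in the first morphine library, and in neither morphine library when equal numbers of the strongest peaks were taken. Of the 3 genes that rose, Bmp4 had a promoter peak throughout, Id1 in 1 morphine library and Lefty1 in none. Genes of overlapping RNA levels differed in their peaks, as Lefty2 and Bmp4 had a promoter peak in every library and Nodal, which lies between them in mean level per kb, had none.

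Of 4 SMAD and FOXH1 response sequences searched in the 6 RefSeq promoters of members that were used, 2 had a match, each in 1 promoter. The GC-rich element bound by SMAD1 and SMAD5, GGCGCC, occurred in Id2 only, beginning 231 bases before the start, against 11.9% of all promoters of this length, counted on both strands. The palindrome GTCTAGAC bound by SMAD3 and SMAD4 occurred in Smad6 only, beginning 4 bases before the start, against 0.213%. With the motif in capitals and 10 bases on either side, these are the matches.
Id2 match: aggccccctgGGCGCCcagcgcacac
Smad6 match: ccgccaaagtGTCTAGACtggcatatga
Neither CAGACA, the core of the CAGA box (21.0% of promoters), nor AATCCACA, a FOXH1 element (0.855%), occurred in the 6. A match here describes letters in a window of 300 bases and not a bound site.

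Of 94 further genes of the BMP, Nodal and TGF-β pathways, 68 passed the filter on low counts, none rose and 1 fell, by edgeR's quasi-likelihood test, which is near the 1.52% of all tested loci that were called. At an unadjusted p under 0.05 there were 6 higher and 12 lower, a share to be read against the 20.5% of all tested loci given above. With the GC and length trends removed there were 3 higher and 6 lower, with no share of all loci computed. The median log2 fold change was -0.01 (-0.02 with the trends removed), and 18 of the 94 symbols are split over several loci of the table. The gene that fell was Crebbp, the acetyltransferase CBP that SMADs recruit to their targets, with 1894 and 1752 counts in the controls and 1257 and 1433 after morphine. Its log2 fold change was -0.35 ± 0.07 (SE, adjusted p = 0.0419), a call that was lost without the first control (-0.25, adjusted p = 0.113), without the first morphine library (-0.33, adjusted p = 0.387) and without the second (-0.37, adjusted p = 0.0644). Crebbp carried a promoter peak in all 4 ChIP libraries.

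Most other BMP ligands did not reach the filter on low counts. Of 13 listed, 5 were tested and none passed the threshold, and the highest, Bmp7 and Bmp8b, reached 2.28 and 1.83 normalised CPM per kb. All 7 tested of the 10 other Nodal, activin and TGF-β ligands missed the threshold as well, with Gdf3, a ligand that uses the Nodal co-receptor, at 65.8 and Inhbb, the activin B subunit, at 25.4 normalised CPM per kb. Their log2 fold changes were 0.07 and -0.03.

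No gene among the receptors and their SMADs passed the threshold. Of 17 receptors and co-receptors 15 were tested, with a median log2 fold change of -0.09, and 2 were higher and 5 lower at an unadjusted p under 0.05 (9.7% and 10.8% of all tested loci). With the GC and length trends removed the median was 0.01, so the lower receptor values did not hold under that setting. At that p 1 was then higher and 1 lower, and the share of all tested loci under that setting was not computed. The type I BMP receptor Bmpr1a had 2852 and 2912 counts in the controls and 2077 and 2599 after morphine, a log2 fold change of -0.22 (adjusted p = 0.0905). Endoglin (Eng), a BMP co-receptor, had 1774 and 1957 against 1989 and 2059, a log2 fold change of 0.21 (adjusted p = 0.0801). All 6 receptor-regulated and common SMADs were tested and their median was -0.09 (-0.02 with the trends removed), with Smad4 at -0.01 and Smad2 at -0.06.

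Inhibitors and the remaining targets gave no call. Of 15 extracellular antagonists 7 were tested, with Twsg1 at 11.6 and Chrd, the BMP trap Chordin, at 1.87 normalised CPM per kb and log2 fold changes of -0.08 and 0.29. All 9 intracellular and membrane inhibitors were tested, among them the SMAD2 corepressor Tgif1 (log2 fold change 0.02) and the SMAD phosphatase Ppm1a (-0.04). Besides Crebbp, the list of processing enzymes and nuclear cofactors held Foxh1, the partner of SMAD2 at Nodal targets, at 0.15 and the proprotein convertase Pcsk6 at 0.03. The BMP targets outside the members, 8 of 10 tested, included Dusp9 at -0.01 and Tbx3 at -0.02, and the Nodal targets, 5 of 8 tested, Otx2 at -0.14. No gene of either target list was called. Promoter peaks were present in all 4 libraries for 23 of the 94 genes, against 11.7% of protein-coding genes, and in none for 47, against 77.1%. Both morphine libraries and no control held one for 1 of the 94, against 1.0% of protein-coding genes. This was Chrdl1, a BMP antagonist, named after its values were seen. Of the reference genes, Pou5f1 was at 0.23 (adjusted p = 0.0525), Nanog at -0.12, Actb at -0.16, Gapdh at -0.05 and Tbp at 0.02 on the log2 scale, none past the threshold.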

How the data were processed

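H3K27me3 ChIP-Seq and RNA-Seq were each available for 2 control and 2 morphine libraries. Reads were mapped to mm10 by the authors, with Bowtie2 2.3.5.1 for ChIP-Seq and HISAT2 2.1.0 for RNA-Seq. The deposited RNA table holds raw counts per locus, which the authors obtained with StringTie 1.3.6 and featureCounts 1.6.4 per the labels, and 2.035% of counts fell in loci without a gene name. The deposited peak files hold the MACS score of each peak, called per library by the authors at p = 1e-05. The lists give no depth per library, the control sample used in calling is not given in the sources used here, and the labels and methods name different suppliers of the antibody.

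The members and gene lists were chosen with earlier results of these data known. The named genes were the members, any other pathway gene past the threshold, the 2 highest genes per kb of each list, the 5 nearest profiles to Bmp4 and 5 reference genes. One gene that this rule names is not reported here. Counts were filtered by filterByExpr (20350 loci kept), scaled by TMM and tested with edgeR 4.0.16 (glmQLFit, glmQLFTest), with Benjamini-Hochberg adjustment at 0.05 over all loci. Normalised CPM are counts scaled to the TMM-adjusted library size, and locus length is that of the table. On simulated data 200 of 200 loci changed by 1 on the log2 scale were recovered, with 25 false calls among 19946 loci run. The changed loci were all above 5 normalised CPM. Recovery of changes as small as those called among the members (0.31 to 0.50) was not tested. A promoter peak is any peak within 1 kb of a GENCODE basic start site, with BED starts converted to base 1. Promoters came from RefSeq (GRCm38.p6), and those of 6 members were used. The promoter of Smad7, on chromosome 18, was left out. Exact tests, DESeq2 1.42.0, other scalings, filters, trends with GC content and length, a replicate block, left-out libraries and stricter peak settings were tried as alternatives.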

Additional observations from a re-analysis of the deposited data

How the results depend on the processing

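In the fit reported, 309 loci (125 up, 184 down) passed the FDR of 0.05, against 790 with edgeR's exact test, 840 with its likelihood ratio test, 652 with DESeq2, 515 with total counts only (281 up, 234 down), 1657 with no filter on low counts, 1128 with a replicate block, 92 with trends of GC content and length removed (59 up, 33 down) and 24 at an FDR of 0.01. Leaving out 1 library gave 13 (without the first morphine library) to 1619 loci (without the second control). Of the members, 3 passed in the fit reported, 1 with the GC and length trends removed, 0 at an FDR of 0.01 and 0 to 3 with 1 library left out, with 0 without the first morphine library. Of the other pathway genes 1 passed, against 2 with DESeq2, 8 with no filter, 2 with the replicate block, 2 with the trends and the block together (where 161 loci of all were up and 172 down), 0 at an FDR of 0.01 and 0 to 7 with 1 library left out. The cause of these differences was not tested.

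Directions turned for Id2 without the second control (-0.07) or the first morphine library (-0.10), within a range of -0.10 to 0.31, and for Id3 with the length trend (-0.0018), the GC and length trends (-0.11), or those with the block (-0.11) removed, and with 1 library left out (-0.0262 to 0.0678). The other 8 members kept their direction under every alternative run. DESeq2 gave no adjusted p for Id1, Id2, Id3 and Smad6.

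Shared replicate numbers are not said by the labels to pair libraries, and the deviations of the first replicates correlated at 0.0264 over 20350 loci, so the block is given only here. With it, 3 members passed.

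At a peak score of at least 100, promoter peaks remained in 3 libraries for Bmp4 and Id2, 1 for Smad7 and 0 for Id1. With at least 50% of the window covered they remained in 2 for Id2 (both morphine libraries and no control), 3 for Smad6 and 0 for Id1, and with equal numbers of peaks in 2 for Smad7 (both controls). Id2 and Smad6, under 140 counts a library, limit what this depth can show.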
